A study of Mus musculus with 22 samples.

Results

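Fat-cell formation and lipid handling were followed through 10 genes in bone marrow mesenchymal stem cells (MSC) with and without Lama4, which encodes the laminin α4 chain of basement membranes. The genes were taken by symbol from the deposited count matrix, where all 10 had a row among 27179 gene rows. They were the transcription factors Pparg, Cebpa, Cebpb and Cebpd, the lipid-handling genes Lpl, Cd36, Fabp4, Plin2 and Apod, and the adipokine gene Adipoq. Their levels were read in 16 MSC libraries, with 6 libraries of acute myeloid leukaemia (AML) cells as a reference.

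All mice were C57BL/6J. The MSC came from bone marrow of animals aged 10 to 14 weeks and were expanded in culture from sorted cells that were negative for lineage markers, CD45, CD31 and CD44 and positive for SCA1 and CD51. WT_MSC (n = 4) were wild type MSC and KO_MSC (n = 4) were Lama4-/- MSC, both without a stated co-culture. WT_MSC_AML (n = 5) and KO_MSC_AML (n = 3) were wild type and Lama4-/- MSC sorted after 48 h with AML cells. WT_AML (n = 3) and KO_AML (n = 3) were the AML cells sorted from culture with wild type or Lama4-/- MSC. The AML cells themselves were wild type for Lama4 in both of those groups. They had been made by retroviral transfer of human MLL-AF9 into Lineage-KIT+ marrow cells of mice aged 10 to 12 weeks. The MSC are thus a culture-expanded fraction kept on SCA1 and CD51, and the labels give the Lama4-/- genotype without a cell type or driver. Nothing in the labels says that replicates were separate animals or cultures, and the p-values measure the spread among these libraries alone, which can be technical.

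Adipocytes arise from mesenchymal progenitors through a cascade in which C/EBPβ and C/EBPδ act early and then turn on PPARγ and C/EBPα, which maintain each other and drive the fat-cell genes. In bone marrow the same progenitors can also become osteoblasts. Among the downstream genes, lipoprotein lipase (Lpl) frees fatty acids from lipoproteins, CD36 takes them up, FABP4 carries them inside the cell and perilipin 2 (Plin2) coats lipid droplets. Apolipoprotein D (Apod) is a secreted lipid carrier of the lipocalin family, and adiponectin (Adipoq) is a hormone of mature adipocytes.

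The upstream sequences of the 2 members with the clearest differences between genotypes, Pparg and Apod, are shown because C/EBP factors, themselves members, bind such regions. RefSeq windows (GRCm38.p6) from 250 bases before to 50 bases after a transcript start were at hand for 7 of the 10 members, 9 windows in all. The capitals mark matches to the C/EBP core TTNNGNAA or, on the other strand, TTNCNNAA. The windows are the most upstream Pparg start (chr6:115360894-115361193, plus strand), the most downstream Pparg start with a window (chr6:115421816-115422115, plus strand) and the Apod start (chr16:31314759-31315058, minus strand), each printed 5′ to 3′ along its gene.
Pparg upstream start: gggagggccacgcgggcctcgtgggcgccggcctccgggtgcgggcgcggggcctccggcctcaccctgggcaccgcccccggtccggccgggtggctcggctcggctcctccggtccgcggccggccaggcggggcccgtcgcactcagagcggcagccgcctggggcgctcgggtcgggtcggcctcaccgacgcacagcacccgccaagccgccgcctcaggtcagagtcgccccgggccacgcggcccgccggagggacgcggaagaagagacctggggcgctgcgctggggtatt
Pparg downstream start: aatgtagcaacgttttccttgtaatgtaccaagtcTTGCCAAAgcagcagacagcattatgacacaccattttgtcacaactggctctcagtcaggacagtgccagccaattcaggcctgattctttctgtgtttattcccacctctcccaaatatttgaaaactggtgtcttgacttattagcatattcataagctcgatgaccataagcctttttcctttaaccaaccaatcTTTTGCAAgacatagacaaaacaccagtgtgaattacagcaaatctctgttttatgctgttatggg
Apod start: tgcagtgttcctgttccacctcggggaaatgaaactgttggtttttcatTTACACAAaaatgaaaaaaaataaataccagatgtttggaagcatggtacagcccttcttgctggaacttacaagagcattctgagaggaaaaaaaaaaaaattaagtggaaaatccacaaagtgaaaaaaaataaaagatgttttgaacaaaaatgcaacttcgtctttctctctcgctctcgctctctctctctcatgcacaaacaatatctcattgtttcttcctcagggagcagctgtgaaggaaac
The upstream Pparg window was 80.3% G and C and held no C/EBP core. The downstream Pparg window was 40.3% G and C and held 2 cores, which begin at -215 and -16 from the start site. The Apod window, 37.3% G and C, held 1 core at -201. Such a core stood in 40.7% of 32851 windows of the same length, so its presence did not set these promoters apart. The windows of Cebpa, Cebpb and Plin2 held none, and those of Cd36 and Adipoq held 1 each. The nuclear receptor half-site AGGTCA, or TGACCT on the other strand, was in 4 of the 9 windows (the upstream Pparg window, a further Pparg window not printed, and those of Cd36 and Plin2) and in 16.3% of all windows. The DR1 element, a direct repeat of it, was in none of the members' windows and in 0.0396% of all. The counts do not tell which Pparg start was used.

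Total counts per library ran from 11201751 to 24826876. Lama4 followed the genotype labels, with a CPM level (counts scaled to a common library size, mean ± SD) of 339 ± 11.7 in the 4 WT_MSC libraries and 257 ± 39.8 in the 5 WT_MSC_AML libraries, against 0.601 ± 0.302 CPM (n = 4) in KO_MSC and a sum of 4 counts over the 3 KO_MSC_AML libraries. The label of KO_MSC_AML replicate 3 names AML cells as its cell type, while its title and its Lama4 level fit Lama4-/- MSC, and it was analysed as such. The 8 MSC markers summed to 19200 to 33500 CPM in MSC and 90.7 to 297 CPM in AML cells, and Lepr, which marks most stromal cells of the marrow, had no count in either co-cultured MSC group. Macrophage markers summed to at most 44.4 CPM and endothelial markers to at most 26 CPM in any MSC library, with Adgre1, C1qa, C1qb and Marco at 0 in MSC cultured alone.

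Libraries of a group differed in sex-linked transcripts. WT_MSC replicate 1 carried Xist at 232 CPM without Ddx3y, whereas WT_MSC replicates 2 to 4 carried Ddx3y without Xist. In KO_MSC, replicate 1 carried both, replicates 2 and 4 Ddx3y and replicate 3 Xist. All 5 WT_MSC_AML libraries carried Ddx3y, at 50.9 to 60.4 CPM, and all 3 KO_MSC_AML libraries carried Xist, at 370 to 472 CPM. In co-culture, genotype and sex-linked transcripts therefore cannot be told apart. The proliferation gene Mki67 also moved with the groups, at 83.7 ± 50.3 CPM in WT_MSC, 5.99 ± 2.52 in KO_MSC, 148 ± 40.9 in WT_MSC_AML and 41.7 ± 17.4 in KO_MSC_AML. WT_MSC replicate 1 had Mki67 at 10.2 CPM, against 119, 92.2 and 113 CPM in WT_MSC replicates 2 to 4 and 3.09 to 9.03 CPM in KO_MSC. That library thus differed from the rest of its group in Mki67 as well as in sex-linked transcripts. Leaving it out or matching for sex-linked transcripts removes both differences within WT_MSC together. The part of Mki67 in the results below was not tested.

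Of the 10 members, 8 passed the filter on low counts in MSC, and Cd36 and Adipoq did not. Cd36 (chromosome 5, 17781690 to 17888959, GRCm38.p6 as for all coordinates here) had 4 counts in WT_MSC replicate 1, 3 counts in KO_MSC replicate 1 and none in the other 20 libraries. Adipoq (chromosome 16, 23146536 to 23157968) had 0 to 2 counts per library in WT_MSC, 0 to 8 in KO_MSC, 0 to 10 in WT_MSC_AML, 0 to 2 in KO_MSC_AML and 0 in AML cells. Both failed the filter in every comparison and were not tested. A group sum of 3 counts corresponds to 0.0319 CPM in WT_MSC_AML and 0.0739 CPM in KO_MSC_AML, so Cd36 lay below those levels in co-cultured MSC. That floor covers counting error only, because PCR copies were not marked by molecular identifiers. Genes of fat-laden adipocytes were not uniformly low in MSC. Plin4, another droplet coat protein, had group means of 51 to 84.1 CPM and Agpat2, an acyltransferase of triglyceride synthesis, 15.2 to 19.1 CPM, and the β3-adrenergic receptor gene Adrb3 reached 12.5 CPM. By contrast Plin1, a coat protein of their lipid droplets, did not exceed 1.4 CPM in any MSC library, and Cidec, Cfd, Lep and Retn did not exceed 0.251 CPM. Agpat2 was also at 22.5 CPM in WT_AML and 22.3 CPM in KO_AML, so its level was not particular to MSC.

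Levels per kilobase of transcript allow the members to be compared with each other. In WT_MSC the mean level was 83.1 CPM per kilobase for Fabp4, 66 for Cebpb, 60.2 for Plin2, 58.2 for Cebpa, 23.1 for Lpl, 17.8 for Pparg and 2.39 for Apod. For Cebpd it was 47.3, with a transcript length of 3746 bases. That length exceeds the RefSeq span of the gene, so the value may be too low and its place in the order is open. The SDs (n = 4) ran from 2.15 for Apod to 22.5 for Cebpb, so Cebpb, Plin2 and Cebpa did not separate. AML cells had Cebpa, Cebpb and Plin2 at levels like those of MSC, with Cebpa at 197 ± 33.0 CPM (n = 3) in WT_AML against 153 ± 42.4 CPM (n = 4) in WT_MSC. Pparg, Lpl, Fabp4 and Apod were at 0.776, 0.669, 0.492 and 0.0352 CPM in WT_AML, and Cebpd at 31.6 CPM. These values bear on carry-over of AML cells into the sorted MSC. A set of 65 genes with at least 100 CPM in every AML library and at most 1 CPM in every lone MSC library put the AML share of RNA at 0.839% to 3.07% in WT_MSC_AML and 0.527% to 1.72% in KO_MSC_AML. At the mean share, AML RNA would make up at most 2.04% of a member's level, in Cebpa of WT_MSC_AML.

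**Figure D1:**
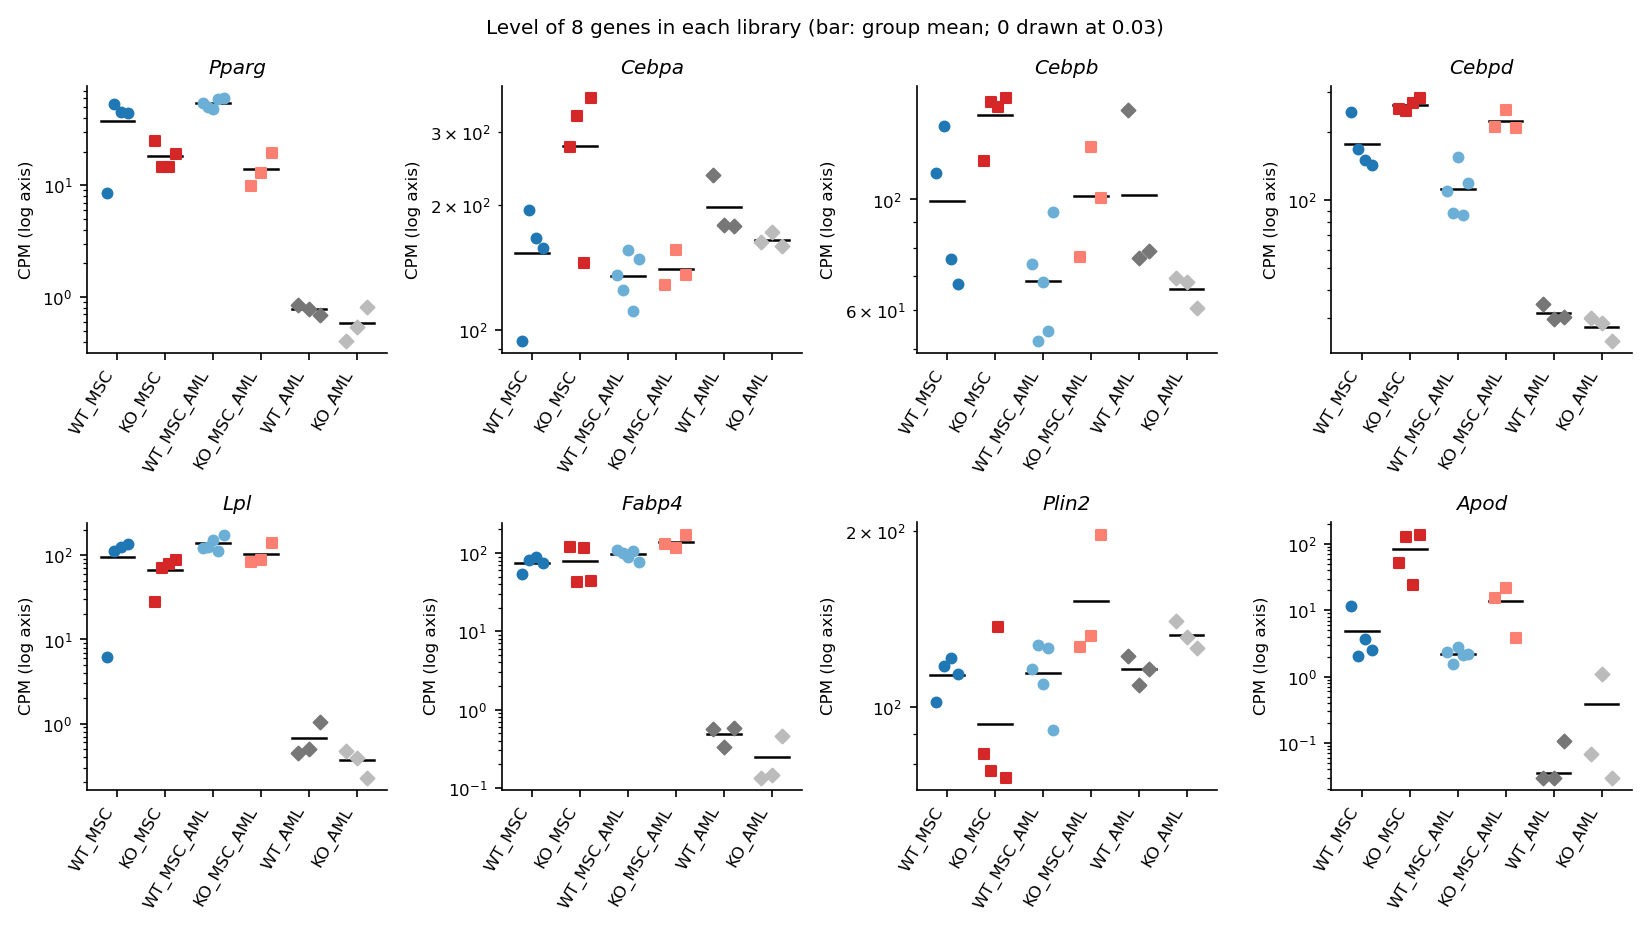
Level of each of the 8 expressed members in every library, in CPM on a log axis, with a bar for the group mean. For Pparg, the 5 WT_MSC_AML libraries lie at 48.4 to 60.2 CPM and the 3 KO_MSC_AML libraries at 9.91 to 19.3 CPM, while WT_MSC replicate 1 lies at 8.51 CPM, away from its group.

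Pparg (chromosome 6, 115360879 to 115490404), the master regulator of fat-cell formation, was lower in KO_MSC_AML than in WT_MSC_AML. Its level was 9.91, 12.9 and 19.3 CPM in the KO_MSC_AML libraries and 54.4, 49.8, 48.4, 59.7 and 60.2 CPM in the WT_MSC_AML libraries. The groups did not overlap, and the highest KO_MSC_AML library stood well under the lowest WT_MSC_AML library. This was a log2 fold change of -1.94 ± 0.19 (SE), or 3.84-fold lower, with an adjusted p of 5.74e-05 by edgeR's quasi-likelihood test. Pparg passed the threshold in all 14 alternative settings of that comparison, at log2 fold changes from -2.23 to -1.75. These are bulk samples, in which fewer cells of a type and less RNA per cell cannot be told apart. Of all genes tested in the comparison, 14.5% were called lower and 16.9% higher. Among the 8 members tested, 1 was called lower, Pparg, and 3 higher, Cebpd, Fabp4 and Apod. Whether these shares differ from those of all genes was not tested. The members called higher were 2 with library size only and in the fit over all 16 MSC libraries. They were 0 with the replicate block and 5 with DESeq2. With library size as the only scaling, the calls over all genes split into 1718 higher and 2790 lower, in place of 2314 higher and 1992 lower, and the median of all genes moved to -0.12 on the log2 scale.

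Without AML cells, Pparg differed in the same direction without passing the threshold. Its level was 8.51, 53.0, 45.3 and 44.3 CPM in WT_MSC and 25.1, 14.5, 14.7 and 19.0 CPM in KO_MSC. The groups overlapped only through WT_MSC replicate 1, which was the lowest of all 8 libraries. For all 8 libraries the log2 fold change was -1.03 ± 0.49 with an edgeR adjusted p of 0.176. Without WT_MSC replicate 1 it was -1.36 with an edgeR adjusted p of 0.000963. Among the libraries with Xist and without Ddx3y, Pparg was 8.51 CPM in WT_MSC replicate 1 and 14.7 CPM in KO_MSC replicate 3, so this single pair ran the other way. In the libraries with Ddx3y and without Xist (WT_MSC replicates 2 to 4, KO_MSC replicates 2 and 4) the log2 fold change was -1.50 with an edgeR adjusted p of 2.47e-09. That p-value rests on few libraries, some of them closely alike, as given below. The authors' deposited table gives Pparg a log2 fold change of -1.02 with an adjusted p of 0.0239 in the same comparison.

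The C/EBP factors did not follow Pparg. Cebpd (chromosome 16, 15887286 to 15889545), which acts early in the cascade, was higher in KO_MSC_AML, at 211, 251 and 208 CPM against 110, 87.9, 156, 86.2 and 119 CPM in WT_MSC_AML. The groups did not overlap. Cebpd was 2.03-fold higher, a log2 fold change of 1.02 ± 0.18, with an edgeR adjusted p of 0.00206. In MSC alone, Cebpd was 253, 249, 269 and 283 CPM in KO_MSC and 245, 169, 151 and 143 CPM in WT_MSC. Those groups did not overlap either, although WT_MSC replicate 1 came within a few CPM of the KO_MSC libraries. Here the log2 fold change was 0.59 ± 0.17 with an edgeR adjusted p of 0.0591, and 0.79 with an adjusted p of 0.000384 without WT_MSC replicate 1.

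Cebpb (chromosome 2, 167688915 to 167690432), the other early factor, was 120, 157, 154 and 160 CPM in KO_MSC and 113, 141, 76.0 and 67.6 CPM in WT_MSC. In co-culture it was 76.6, 128 and 101 CPM in KO_MSC_AML and 51.9, 68.3 and 94.4 CPM (lowest, median and highest of 5) in WT_MSC_AML. Both pairs of groups overlapped. Its log2 fold change was 0.59 in each, with SEs of 0.23 alone and 0.21 in co-culture and edgeR adjusted p of 0.121 and 0.0555. The second passed without WT_MSC_AML replicate 5 (0.74, adjusted p 0.0161) and without KO_MSC_AML replicate 1 (0.76, adjusted p 0.0336). It also passed with DESeq2 (0.58, adjusted p 0.0322), which called 6 members between the co-cultured genotypes, Cebpb and Plin2 beside the 4 called by edgeR. Over all genes, DESeq2 called 4822 of 13710 in that comparison.

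Cebpa (chromosome 7, 35119293 to 35121928), which works with PPARγ in the later steps, showed no such difference in co-culture. Its level was 128, 156 and 136 CPM in KO_MSC_AML and 111, 135 and 156 CPM (lowest, median and highest of 5) in WT_MSC_AML. The groups overlapped almost wholly, and the log2 fold change was 0.07 ± 0.12 (edgeR adjusted p 0.711). The sign turned with library size as the only scaling, to -0.05, and without KO_MSC_AML replicate 2, to -0.02. In MSC alone, Cebpa was 275, 326, 145 and 361 CPM in KO_MSC and 93.8, 194, 166 and 157 CPM in WT_MSC, and KO_MSC replicate 3 was the one that overlapped. The log2 fold change there was 0.87 ± 0.31 with an edgeR adjusted p of 0.0963, and 1.08 with an adjusted p of 0.0485 without KO_MSC replicate 3. The authors' deposited table gives Cebpa 0.88 with an adjusted p of 0.00135 and Cebpd 0.59 with an adjusted p of 0.0105 for KO_MSC against WT_MSC.

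**Figure D2:**
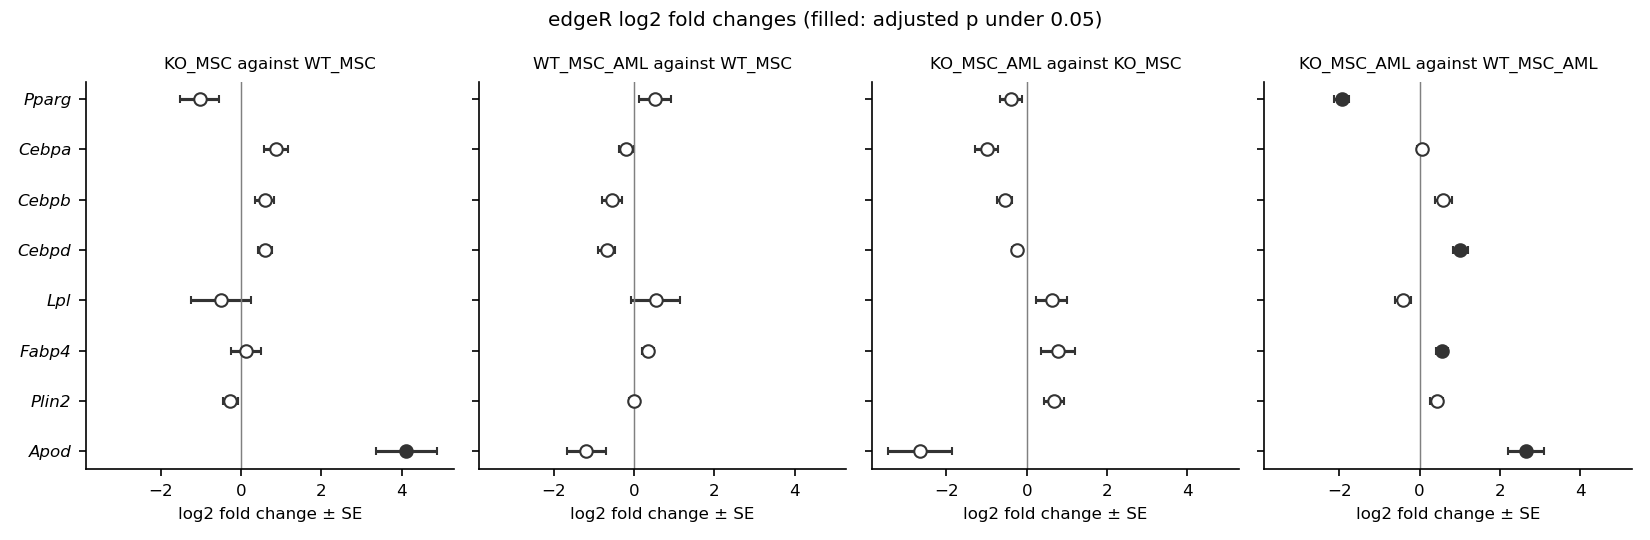
Log2 fold change of the 8 tested members with its SE in the 4 comparisons between groups, with filled points at an edgeR adjusted p under 0.05. Pparg lies at -1.94 and Apod at 2.65 between the co-cultured genotypes, Apod lies at 4.11 between the genotypes alone, and no point is filled for co-culture against culture alone.

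Apod (chromosome 16, 31296192 to 31314808) spanned the widest range of the members, 6.44 log2 units over the 16 MSC libraries. Its level was 51.6, 126, 24.1 and 139 CPM in KO_MSC and 11.6, 2.04, 3.71 and 2.51 CPM in WT_MSC. The groups did not overlap, and WT_MSC replicate 1 was again nearest to KO_MSC. Apod was 17.3-fold higher, a log2 fold change of 4.11 ± 0.76, with an edgeR adjusted p of 0.0253. Apod was the 1 member called higher of 8 tested in this comparison, and 0 were called lower, where 5.24% of all genes were called higher and 6.34% lower. By edgeR, 4 members had an unadjusted p under 0.05, and DESeq2 called 3, Cebpa, Cebpd and Apod. Of the 13344 genes tested, 4477 had an unadjusted edgeR p under 0.05, and DESeq2 called 3267. The Apod call was lost when any of WT_MSC replicates 2, 3 and 4 or KO_MSC replicates 2 and 4 was left out, with log2 fold changes of 3.78 to 3.99 and adjusted p up to 0.0903. Over all genes, leaving out 1 library gave 55 to 6242 calls in place of 1545, with the most without WT_MSC replicate 1 and under 130 without WT_MSC replicate 2, 3 or 4 or KO_MSC replicate 2 or 4.

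In co-culture Apod was again higher in the Lama4-/- group. It was 15.4, 21.7 and 3.82 CPM in KO_MSC_AML and 2.33, 1.54, 2.83, 2.13 and 2.19 CPM in WT_MSC_AML. KO_MSC_AML replicate 3 was low for its group, but the groups did not overlap. It was 6.27-fold higher, a log2 fold change of 2.65 ± 0.44, with an edgeR adjusted p of 0.00159. Against KO_MSC, the KO_MSC_AML libraries lay below every KO_MSC library, with a log2 fold change of -2.65 ± 0.79 and an edgeR adjusted p of 0.108.

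Fabp4 (chromosome 3, 10204342 to 10208616), a classical target of PPARγ, ran opposite to Pparg in co-culture. Its level was 130, 114 and 172 CPM in KO_MSC_AML and 109, 99.1, 88.3, 105 and 77.6 CPM in WT_MSC_AML. The groups did not overlap, though the lowest KO_MSC_AML and the highest WT_MSC_AML library were close. Fabp4 was 1.46-fold higher, a log2 fold change of 0.55 ± 0.15, with an edgeR adjusted p of 0.017. That call was lost without KO_MSC_AML replicate 3 (0.37, adjusted p 0.062), with library size as the only scaling (0.44, adjusted p 0.0556) and in a fit over all 16 MSC libraries (0.54, adjusted p 0.203). In MSC alone, Fabp4 was 118, 42.2, 115 and 43.7 CPM in KO_MSC, which fell into a high and a low pair around the 53.4 to 88.2 CPM of WT_MSC. The low pair, replicates 2 and 4, were the KO_MSC libraries with Ddx3y and without Xist. Its log2 fold change was 0.12 ± 0.38 (edgeR adjusted p 0.845) over all libraries and -0.92 (edgeR adjusted p 3.35e-09) in the libraries matched for sex-linked transcripts.

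Lpl (chromosome 8, 68880555 to 68906932) was 83.0, 87.7 and 139 CPM in KO_MSC_AML and 124, 126, 154, 112 and 176 CPM in WT_MSC_AML. A single KO_MSC_AML library, replicate 3, overlapped with WT_MSC_AML. Its log2 fold change was -0.41 ± 0.19 with an edgeR adjusted p of 0.133, and -0.67 with an adjusted p of 0.012 without that library. In MSC alone, Lpl was 27.7, 71.4, 79.3 and 87.3 CPM in KO_MSC and 6.28, 112, 127 and 135 CPM in WT_MSC. As for Pparg, only WT_MSC replicate 1 fell among or under the KO_MSC libraries. Over all libraries the log2 fold change was -0.50 ± 0.75 with an edgeR adjusted p of 0.66, and -0.64 with an adjusted p of 3.8e-05 in the libraries matched for sex-linked transcripts.

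Plin2 (chromosome 4, 86626910 to 86670217) varied least of the 8, spanning 1.36 log2 units over the 16 MSC libraries. It was 83.4, 77.9, 137 and 75.9 CPM in KO_MSC and 102 to 121 CPM in WT_MSC, with KO_MSC replicate 3 above the WT_MSC range and the other KO_MSC libraries under it. Its log2 fold change was -0.26 ± 0.19 (edgeR adjusted p 0.36), and -0.51 with an adjusted p of 0.0301 without KO_MSC replicate 3. In co-culture it was 126, 132 and 197 CPM in KO_MSC_AML and 91.4 to 128 CPM in WT_MSC_AML, which overlapped. The log2 fold change was 0.43 ± 0.16 with an edgeR adjusted p of 0.0636, and 0.43 with an adjusted p of 0.0465 by DESeq2.

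**Figure D3:**
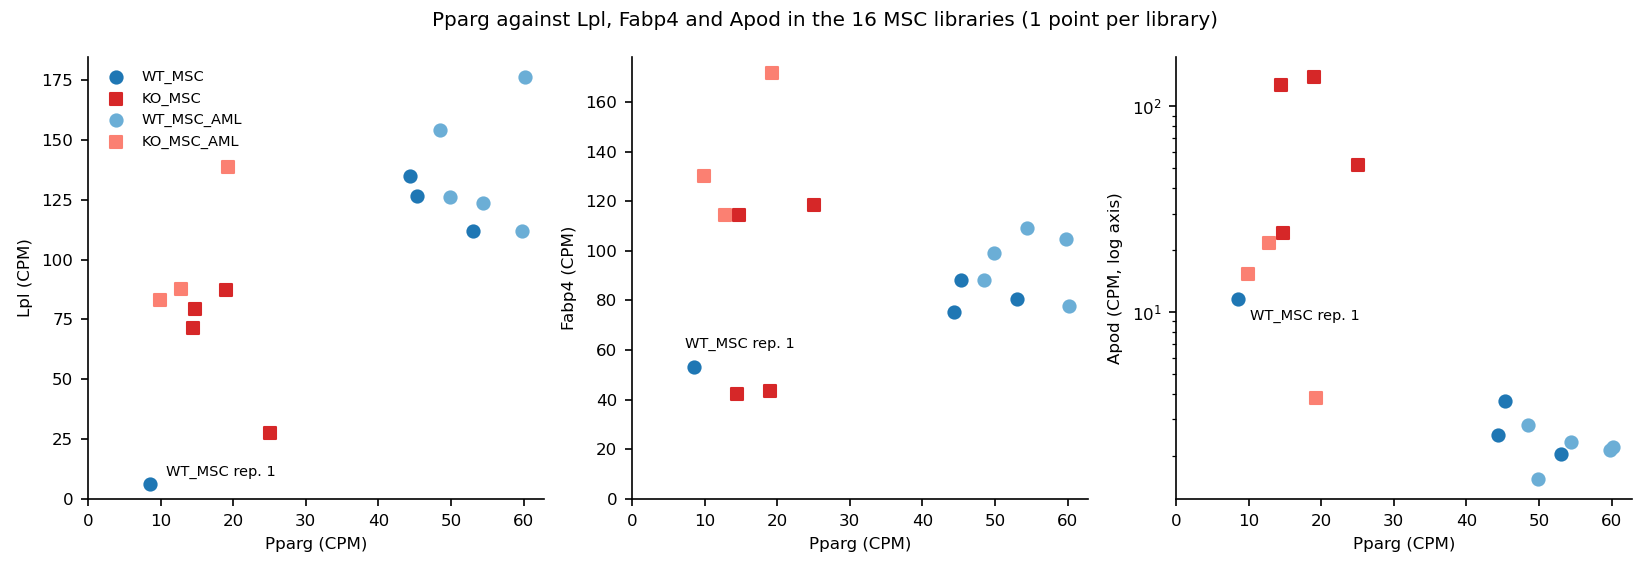
Pparg level against the level of Lpl, Fabp4 and Apod, in CPM, with 1 point for each of the 16 MSC libraries (Apod on a log axis). WT_MSC replicate 1 lies on the side of the Lama4-/- libraries, at 8.51 CPM of Pparg, and has the lowest Lpl level, 6.28 CPM, while the other wild type libraries have Pparg at 44.3 CPM or more.

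The libraries matched for sex-linked transcripts give a different picture of MSC alone from the full groups. With WT_MSC replicates 2 to 4 against KO_MSC replicates 2 and 4, 7 of the 8 tested members were called by edgeR: Pparg, Lpl, Fabp4 and Plin2 lower and Cebpa, Cebpd and Apod higher. Apod had a log2 fold change of 5.62, Cebpa 0.996, Cebpd 0.79 and Plin2 -0.61. Over all genes, that fit called 4112 higher and 4066 lower of 13622 tested, so most genes were called and the members' count is to be read against that. In that fit WT_MSC replicates 3 and 4, and KO_MSC replicates 2 and 4, were among the closest pairs of all libraries. Their counts differed by a chi-square of 4.67 and 7.43 per degree of freedom. The small p-values rest in part on that narrow spread, which can be technical. Mki67 also followed genotype there, at 92.2 to 119 CPM in WT_MSC and 5.10 and 3.09 CPM in KO_MSC. In the co-cultured groups no such matched fit could be made, since every WT_MSC_AML library carried Ddx3y and every KO_MSC_AML library Xist.

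Co-culture with AML cells changed no member past the threshold in either genotype. In wild type MSC, 0 of 8 members were called by edgeR or DESeq2. By edgeR, 0.64% of all genes were called higher and 0.104% lower, and DESeq2 called 532 of 13439 genes. At an unadjusted edgeR p under 0.05 were 2459 of those genes and 4 of the members. The nearest was Cebpd, which was 110, 87.9, 156, 86.2 and 119 CPM in WT_MSC_AML against 143 to 245 CPM in WT_MSC, with a log2 fold change of -0.68 ± 0.21 and an edgeR adjusted p of 0.168. The authors' deposited table gives it -0.69 with an adjusted p of 0.00386. Apod had a log2 fold change of -1.19 ± 0.48 (edgeR adjusted p 0.236) and Pparg 0.52 ± 0.40 (edgeR adjusted p 0.49). Cebpd, Apod and Pparg each overlapped between these groups. WT_MSC replicate 1 was the only library of this comparison with Xist and without Ddx3y. Without it, the log2 fold changes were -0.32 for Apod, 0.19 for Pparg and -0.47 for Cebpd. In the same fit 8 of 9 tested blood-cell markers were called higher, and the sum over all 10 was 0.479 to 1.66 CPM in WT_MSC and 25.8 to 101 CPM in WT_MSC_AML. The carry-over estimate given above covers their part in the members' values.

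In Lama4-/- MSC, 0 of 8 members were called by edgeR after co-culture, with 4 at an unadjusted p under 0.05 and 2 called by DESeq2, Cebpa and Apod, both lower. The background by edgeR was 0.565% of genes called higher and 0.178% lower. Of the 13452 genes tested, 3295 had an unadjusted edgeR p under 0.05, and DESeq2 called 891 higher and 917 lower. Cebpa was 128, 156 and 136 CPM in KO_MSC_AML against 145 to 361 CPM in KO_MSC, with a log2 fold change of -1.0 ± 0.29 and an edgeR adjusted p of 0.0959. It passed without KO_MSC replicate 3 (-1.22, adjusted p 0.00914), which also let Plin2 pass (0.92, adjusted p 0.0265). Cebpb passed without KO_MSC_AML replicate 2 (-0.76, adjusted p 0.0472). Sex-linked transcripts moved with this comparison too, since KO_MSC replicate 3 was the sole KO_MSC library with Xist and without Ddx3y, as all KO_MSC_AML libraries were. With that single library as the lone-culture group, assumed to vary like the others, the log2 fold change was -0.07 for Cebpa and -0.84 for Apod. A fit with 1 library in a group cannot decide whether a member changed. The authors' deposited table gives Cebpa -0.99 with an adjusted p of 0.0014, Plin2 0.69 with an adjusted p of 0.00375 and Apod -2.64 with an adjusted p of 0.031. Both co-culture comparisons share their groups with the genotype comparisons, so the 4 are not independent of each other.

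The effect of co-culture was not shown to differ between the genotypes for any member. In the interaction over 16 libraries, 0 of 8 members and 0% of 14247 genes were called by edgeR, higher or lower, with 2 members and 1102 genes at an unadjusted p under 0.05. DESeq2 called 0 members and 29 genes. The 2 members were Plin2, at 0.68 ± 0.27 on the log2 scale (edgeR adjusted p 0.571), and Cebpa, at -0.81 ± 0.35 (edgeR adjusted p 0.597). The interaction was -0.92 ± 0.57 for Pparg and -1.47 ± 0.94 for Apod. The median log2 fold change of the 8 tested members, beside that of all genes tested, was 0.35 against 0.01 for genotype in MSC alone, -0.09 against -0.0037 for co-culture in wild type MSC, -0.33 against -0.0044 for co-culture in Lama4-/- MSC, and 0.49 against -0.01 for genotype in co-culture.

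**Figure D4:**
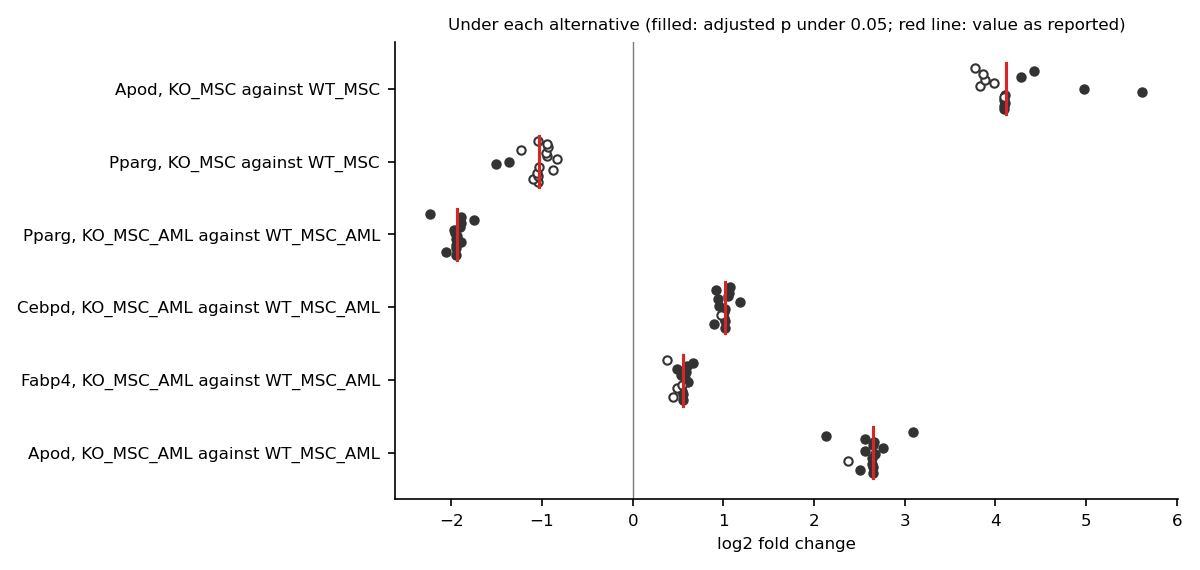
Log2 fold change of 6 member results under each alternative setting, with filled points at an adjusted p under 0.05 and a red line at the value as reported. Pparg between the co-cultured genotypes is filled throughout, from -2.23 to -1.75, whereas Apod between the genotypes alone has open points from 3.78 to 4.09.

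The wider pathway was read from 6 lists of other genes. Of 20 regulators that favour fat-cell formation, 19 were tested in KO_MSC against WT_MSC and 0 were called by edgeR, the smallest p being that of Ebf3 (0.60, adjusted p 0.0629), but 7 were called higher without WT_MSC replicate 1. In the libraries matched for sex-linked transcripts 10 were higher and 3 lower. Over all genes, the fit without WT_MSC replicate 1 called 3270 higher and 2972 lower of 13558. The matched fit called 4112 higher and 4066 lower of 13622. In co-culture 17 were tested, of which 3 were higher and 1 lower in KO_MSC_AML (2 and 3 with library size as the only scaling). There 16.9% of all genes were higher and 14.5% lower (1718 and 2790 of 13710 genes with library size only). Ebf2, an early B-cell factor that marks fat-cell precursors, had a mean of 14.9 ± 1.89 CPM over the 3 KO_MSC_AML libraries, while WT_MSC_AML stood at 0.269 ± 0.0949 CPM, a log2 fold change of 5.79 (edgeR adjusted p 2.38e-07). Lpin1, a phosphatidate phosphatase of triglyceride synthesis, was also higher (0.81, adjusted p 0.0116), while Zfp423, a factor that commits cells to the fat lineage, was lower (-1.84, adjusted p 0.00299). In MSC alone Ebf2 was 21.1 ± 5.01 CPM in KO_MSC and 5.31 ± 10.1 CPM in WT_MSC, where WT_MSC replicate 1 had 20.5 CPM.

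Among 12 regulators that hold fat-cell formation back, Sox9 and Wnt10b were called for genotype both with and without AML cells. Sox9, a chondrogenic factor, was higher in KO_MSC (1.03, edgeR adjusted p 0.033) and in KO_MSC_AML (1.30, adjusted p 0.000229). Wnt10b, a Wnt ligand that favours bone over fat, was lower in KO_MSC (-2.89, edgeR adjusted p 0.0463) and in KO_MSC_AML (-2.55, adjusted p 0.000298), at 1.55 ± 0.108 CPM against 9.25 ± 3.62 CPM in WT_MSC_AML. These were the 2 calls of 11 tested in MSC alone over all 8 libraries, where 5.24% of all genes were higher and 6.34% lower. Without WT_MSC replicate 1, 2 were higher and 3 lower, beside 3270 and 2972 of 13558 genes. In the matched libraries 2 were higher and 5 lower, beside 4112 and 4066 of 13622 genes. In co-culture 3 of 12 were higher and 3 lower, with Wnt5a (2.24, adjusted p 8.02e-05) and Foxo1 (-0.65, adjusted p 0.00713) among them. Of all genes, 16.9% were higher and 14.5% lower there. WT_MSC replicate 1 had Wnt10b at 0.882 CPM and Wnt5a at 59.5 CPM, like the Lama4-/- libraries. Sox9, at 35.5 CPM, and Foxo1, at 64.6 CPM, were nearer to the WT_MSC means in that library.

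Most genes of the mature adipocyte were too low to test, with 4 of 16 passing the filter. Of the 4, 0 were called in MSC alone by edgeR or DESeq2 over all 8 libraries, 2 were lower without WT_MSC replicate 1, and 1 was higher and 3 lower in the matched libraries. Without WT_MSC replicate 1, 2972 of 13558 genes were lower, and the matched libraries gave 4112 higher and 4066 lower of 13622. Adrb3, through which catecholamines trigger fat breakdown, was lower in KO_MSC_AML, at 1.40 ± 1.16 CPM against 8.11 ± 1.77 CPM (-2.51, edgeR adjusted p 0.0058).

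Of 17 genes of lipid uptake and transport tested, 2 were higher and 3 lower in KO_MSC, where 5.24% of all genes were higher and 6.34% lower. In KO_MSC_AML 6 were higher and 4 lower, where 16.9% of all genes were higher and 14.5% lower. Without WT_MSC replicate 1 the counts in MSC alone were 6 higher and 5 lower, and in the matched libraries 8 higher and 5 lower. Over all genes the first of these fits called 3270 higher and 2972 lower of 13558. The matched fit called 4112 higher and 4066 lower of 13622. Fabp5, a fatty acid carrier related to Fabp4, was lower in KO_MSC, at 9.29 ± 2.01 CPM, than in WT_MSC, at 26.4 ± 1.35 CPM (-1.49, edgeR adjusted p 0.00686), and this call held in all 15 alternative settings. The cholesterol exporter Abcg1 was higher in KO_MSC (2.595, adjusted p 0.0276) and in KO_MSC_AML (3.52, adjusted p 0.000208). Apoe, the apolipoprotein of cholesterol-rich particles, was 162 ± 106 CPM in KO_MSC and 9.27 ± 12.0 CPM in WT_MSC (4.14, edgeR adjusted p 0.0482). Cav1, the caveolin of membrane pits, was 964 ± 204 CPM in KO_MSC_AML and 111 ± 14.7 CPM in WT_MSC_AML (3.14, edgeR adjusted p 5.24e-07). The acyl-CoA synthetase Acsl3 (-1.24, adjusted p 0.000226) and the HDL receptor gene Scarb1 (-0.68, adjusted p 0.000418) were lower there. In WT_MSC replicate 1, Cav1 was 472 CPM, Acsl3 14.9 CPM and Scarb1 30.3 CPM, toward the KO_MSC means of 690, 12.1 and 30.8 CPM. Fabp5, Abcg1 and Apoe, at 27.1, 3.42 and 27.3 CPM in that library, were nearer to the WT_MSC means.

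Droplet and oxidation genes were read against the same shares of all genes, 5.24% higher in MSC alone and 16.9% higher in co-culture. Of 13 droplet and lipolysis genes tested, 1 was higher in KO_MSC, the lipase co-activator Abhd5 (0.45, edgeR adjusted p 0.0379), and 2 in KO_MSC_AML, the acyltransferases Dgat2 (0.91, adjusted p 0.0398) and Gpam (0.45, adjusted p 0.0124). These droplet counts are near the shares of all genes, and 0 were called in co-culture with library size as the only scaling. Of 17 fatty acid oxidation genes, 2 were higher in KO_MSC, Hadhb (0.58, adjusted p 0.0359) and Hadha (0.30, adjusted p 0.0481), which encode the mitochondrial trifunctional protein. In KO_MSC_AML 6 genes of this list were higher and 0 lower, among them Cpt1c (0.64, adjusted p 0.00156) and Cpt2 (0.76, adjusted p 0.00186). Cpt1c was listed by its carnitine palmitoyltransferase family name, and its part in oxidation was not tested. The median log2 fold change of the oxidation genes was 0.17 in co-culture beside -0.01 over all genes. Lower oxidation calls appeared in other fits of that comparison, with 5 higher and 1 lower by library size only, 6 higher and 1 lower over all 16 MSC libraries and 7 higher and 1 lower without WT_MSC_AML replicate 5. In MSC alone without WT_MSC replicate 1, 4 droplet and 8 oxidation genes were higher and 0 lower. That fit called 3270 of 13558 genes higher and 2972 lower, far above the 5.24% of the full groups. In the MSC libraries matched for sex-linked transcripts, both lists had calls in both directions, 5 higher and 1 lower for droplet genes and 8 higher and 3 lower for oxidation genes. Over all genes the matched libraries gave 4112 higher and 4066 lower of 13622.

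**Figure D5:**
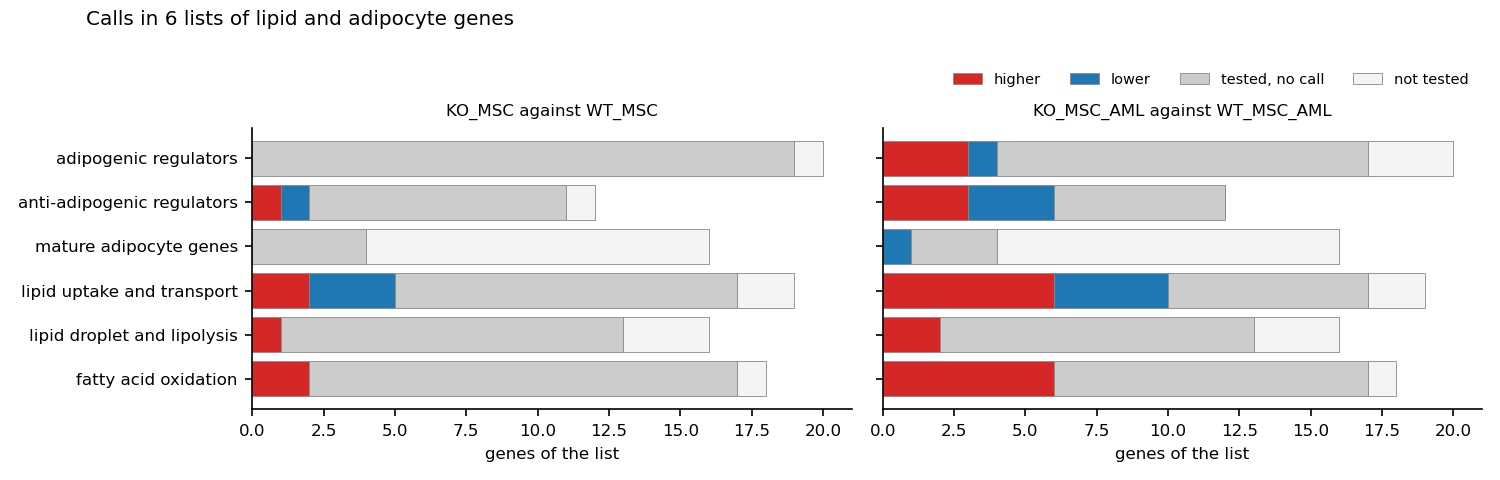
Number of genes of 6 lists called higher or lower by edgeR, tested without a call, or not tested, for genotype in MSC alone and in co-culture. The uptake and transport list has calls in both directions (2 and 3 alone, 6 and 4 in co-culture), and the fatty acid oxidation list has 6 higher and 0 lower in co-culture.

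Co-culture itself called 0 genes of the 6 lists in wild type MSC by edgeR. In Lama4-/- MSC it called 1, Scarb1, which was 55.3 ± 1.44 CPM in KO_MSC_AML and 30.8 ± 3.79 CPM in KO_MSC (0.83, edgeR adjusted p 0.034). That call passed in 6 of 14 alternative settings, with adjusted p up to 0.889. DESeq2 called more list genes lower there, among them 4 adipogenic regulators and 4 droplet genes, where it called 917 of 13452 genes lower. Of the 16 list genes named for genotype in co-culture, 10 passed in all 14 alternative settings. Of the 9 named for genotype in MSC alone, 1 passed in all 15, Fabp5.

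Genes with the most similar pattern were looked up for the members that spanned at least 2 log2 units over the 16 MSC libraries, by the root mean square difference of centred log2 CPM. For Pparg they were Adgra2 (0.352), Gdf15 (0.355) and Hmgb2 (0.367), where the SD of Pparg itself was 1 log2 unit. For Lpl they were Ifi204 (0.51), Pde2a (0.528) and Mapk12 (0.596). For Fabp4 they were Mpzl1 (0.298), Emp2 (0.308) and Ugt1a6b (0.32). For Apod they were Dbp (0.664), Epas1 (0.746) and Scara5 (0.754). No member was among the 3 most similar genes of another.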

How the data were processed

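The submitters' labels describe bulk RNA-seq made with SMART-Seq v4 and Nextera XT, read single-end. Different sequencers are listed, but no library is assigned to either of them. Whether differences between libraries or groups follow the sequencer was therefore not tested. The authors deposited raw gene counts of 22 libraries, made per the file headers with STAR and featureCounts and, per the submitters' processing notes, with STAR 2.6.1d after FastQC 0.11.8 and MultiQC 1.7, on GRCm38. Annotation version and strand setting: not given in the sources used here. Antisense partners therefore cannot be told apart. Beside the counts stand the authors' deposited log2 fold changes and adjusted p-values from DESeq2, per the file headers.

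Counts were fitted with edgeR 4.0.16 (R 4.3.3): TMM scaling, filterByExpr, robust quasi-likelihood F-test, two-sided, Benjamini-Hochberg over all genes, threshold 0.05. A fit held just the libraries of its own groups, and all 16 MSC libraries entered the interaction. CPM are TMM-scaled over all libraries. Fits were tested on simulated data. DESeq2 1.42.0, other scalings, no filter, a replicate block, 1 fit over all MSC libraries, libraries matched for sex-linked transcripts (limit 10 CPM) and leaving out each library were tried. Members and lists were chosen with earlier results of these data known. All members are named, and of each list at most 2 genes called in each direction, by adjusted p, or the smallest p where none was. No pair of libraries agreed within sampling noise (smallest chi-square 4.67 per degree of freedom, for WT_MSC replicates 3 and 4).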

Additional observations from a re-analysis of the deposited data

Results flagged for a closer look

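Among 29 combinations of member and group with 4 or more libraries, 4 held a library far from the others, where chance flags about 1 in 20. Cebpb in KO_MSC replicate 1 was the lowest of its group, at 119.6 CPM against 153.8 to 160.0 CPM. Plin2 in KO_MSC replicate 3 was the highest of its group, at 137 CPM against 75.9 to 83.4 CPM. Cd36 had 4 counts (0.2074 CPM) in WT_MSC replicate 1 and 3 counts (0.1822 CPM) in KO_MSC replicate 1, with 0 in the other libraries of both groups. Any such group with counts in 1 library alone is flagged, so the rate of 1 in 20 does not hold for Cd36.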

How the results depend on the processing

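The numbers of replicates pair nothing in the labels, and deviations of same-numbered libraries correlated at -0.481 to 0.323 over genes, not above 0.1 for every pair of any comparison. With the replicate block, 0 members were called for KO_MSC against WT_MSC in place of 1, 1 (Apod) for KO_MSC_AML against KO_MSC in place of 0, and 1 (Pparg) for KO_MSC_AML against WT_MSC_AML in place of 4, and the calls over all genes fell or rose to 270, 139 and 1142 in that order. DESeq2 and the fit over all 16 MSC libraries each called 3 members for KO_MSC against WT_MSC and 2 for KO_MSC_AML against KO_MSC, and the libraries matched for sex-linked transcripts called 7 for the former. Over all genes, DESeq2 called 3267 and 1808 in that order, and the fit over all 16 MSC libraries 2977 and 935. The matched libraries called 8178 genes for KO_MSC against WT_MSC. Leaving out 1 library gave 0 to 3 members for KO_MSC against WT_MSC, 0 to 2 for KO_MSC_AML against KO_MSC, and 4 to 5 for KO_MSC_AML against WT_MSC_AML. Over all genes it gave 26 to 255 calls for WT_MSC_AML against WT_MSC, 0 to 1324 for KO_MSC_AML against KO_MSC, 2958 to 4535 for KO_MSC_AML against WT_MSC_AML and 0 to 81 for the interaction.

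Some log2 fold changes turned sign. Fabp4 in KO_MSC against WT_MSC was -0.036 with the replicate block, -0.92 in the matched libraries and -0.15 to 0.33 without 1 library. Plin2 in WT_MSC_AML against WT_MSC was -0.00032 without a filter and -0.044 to 0.075 without 1 library. Cebpa between the co-cultured genotypes was -0.052 with library size only and -0.023 to 0.13 without 1 library. In the interaction, Cebpb was 0.0049 with the replicate block and -0.22 to 0.17 without 1 library, and Lpl was -0.18 to 0.48 without 1 library. The cause was not tested.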
